A study of Mus musculus with 9 samples.

Results

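The common gamma chain receptors are the cell surface receptors for interleukins 2, 4, 7, 9, 15 and 21, and the 8 genes described here encode their chains. The genes were chosen by name from the receptor family, with earlier results of these data known. All 8 (Il2ra, Il2rb, Il2rg, Il4ra, Il7r, Il21r, Il15ra and Il9r) were found among the 55487 gene identifiers of the deposited tables, and 7 passed the filter on low counts that left 13043 genes for testing. Polyadenylated RNA of lymph node cells labelled naive CD4+ T cells, from mice of strain C57BL6/J with genotype WT, was measured in 9 libraries. There were 3 freshly prepared libraries (fresh, no treatment), 3 from cells kept 20 h in culture without the cytokine (cultured), and 3 from cells kept 20 h with recombinant interleukin-1 beta at 10 ng/mL (IL-1b-treated). Interleukin-1 beta belongs to the inflammatory cytokines and binds a receptor outside this family. The labels name neither the culture medium nor any other agent in it, and give no age.

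Each receptor of this family combines a chain that recognises its ligand with the shared gamma chain, encoded by Il2rg, which carries the kinase JAK3 on its intracellular tail. JAK1 sits on Il2rb and on the ligand-binding chains of the receptors for interleukins 4, 7, 9 and 21, while the alpha chains Il2ra and Il15ra bind their ligand without carrying a kinase. The paired kinases phosphorylate STAT5, STAT6 or STAT3 according to the receptor. In naive T cells the interleukin-7 receptor provides survival signals, the interleukin-4 receptor takes part in helper differentiation, and the interleukin-2 receptor alpha chain, CD25, is the classic marker of activation and of regulatory T cells. Since the gamma chain is shared, the receptors can compete for it.

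Transcription factors known for this family bind short DNA words, and the sequences before the start sites of 3 members whose levels the results turn on hold such words. Il2ra rose most on culture, Il21r fell most, and Il7r is the most abundant ligand-specific chain of fresh cells. The 250 bases before each start site are given 5′ to 3′ on the gene's strand, from RefSeq on GRCm38.p6, with matches in capitals. For Il2ra the stretch is chr2:11642542-11642791 on the plus strand, for Il21r chr7:125603179-125603428 on the plus strand, and for Il7r chr15:9529877-9530126 on the minus strand. The RefSeq start site of Il7r lies 300 bases inside the gene as GENCODE M21 draws it, because a transcript that is not protein-coding starts there; the outermost protein-coding start in GENCODE lies 41 bases downstream of the RefSeq one.
Il2ra: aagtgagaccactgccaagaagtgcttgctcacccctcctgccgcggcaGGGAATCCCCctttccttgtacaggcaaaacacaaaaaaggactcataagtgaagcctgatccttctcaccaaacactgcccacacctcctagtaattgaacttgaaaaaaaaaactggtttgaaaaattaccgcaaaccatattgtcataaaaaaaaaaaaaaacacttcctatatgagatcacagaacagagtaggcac
Il21r: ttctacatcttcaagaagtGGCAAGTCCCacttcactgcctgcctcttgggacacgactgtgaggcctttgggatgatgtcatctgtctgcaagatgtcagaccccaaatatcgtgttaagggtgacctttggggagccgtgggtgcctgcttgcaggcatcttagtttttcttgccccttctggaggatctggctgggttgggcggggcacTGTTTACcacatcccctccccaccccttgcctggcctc
Il7r: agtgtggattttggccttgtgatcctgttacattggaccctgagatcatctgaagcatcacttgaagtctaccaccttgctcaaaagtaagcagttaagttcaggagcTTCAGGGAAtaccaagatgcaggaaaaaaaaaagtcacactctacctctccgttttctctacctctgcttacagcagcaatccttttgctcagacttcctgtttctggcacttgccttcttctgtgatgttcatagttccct
The motifs searched, on both strands, were the NF-kB word GGGANNNNCC, the STAT word TTCNNNGAA, the STAT6 word TTCNNNNGAA and the FOXO word TGTTTAC. Windows of 300 bases, from 250 before to 50 after the start, were at hand for 7 of the 8 members, and for 32851 windows in all. The NF-kB word lay 201 bases before the start of Il2ra and, on the minus strand, 231 bases before that of Il21r, and 20.7% of all windows hold it. The FOXO word lay 38 bases before the start of Il21r (3.65% of all windows), and the STAT word 142 bases before that of Il7r (8.3% of all windows). None of the searched words, the STAT6 word (6.95% of all windows) included, was in the windows of Il2rg, Il4ra, Il15ra or Il9r. A match describes letters and is no evidence of binding.

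Before the levels, the scale has to be named, because the 3 groups differ in more than these genes. Levels are given in TPM, a share of all transcripts that is corrected for length and can be compared between genes. Changes are given as log2 fold changes of counts scaled by TMM, a method that centres the bulk of genes, with edgeR's quasi-likelihood test and a Benjamini-Hochberg adjusted p under 0.05 as the threshold over all genes tested. On the scale of log2(TPM + 1) the median gene was displaced by -0.19 between cultured and fresh cells, by -0.25 between IL-1b-treated and cultured cells and by -0.45 between IL-1b-treated and fresh cells, so a TPM value can be lower in a group where the gene is higher relative to most genes. The labels do not say whether the replicates come from separate mice or cultures, so p-values measure the spread between these libraries, which may be technical. In a principal component analysis IL-1b-treated replicate 3 stood apart from its group on the third component, at 39.6 against -14.0 and -19.8. In such bulk samples fewer cells of a type and less RNA per cell cannot be told apart.

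In fresh cells the shared chain was the most abundant member and the activation chain Il2ra was near the bottom. By mean TPM the order was Il2rg, Il7r, Il21r, Il4ra, Il15ra, Il2rb, Il2ra and Il9r, and the library ranges of neighbours overlapped only for Il15ra with Il2rb and for Il2ra with Il9r. In cultured cells the order was Il2rg, Il4ra, Il7r, Il21r, Il2ra, Il2rb, Il15ra and Il9r, with no overlap between neighbours. In IL-1b-treated cells it was the same except that Il7r (194.8 ± 4.32 TPM, SD, n = 3) came before Il4ra (192.6 ± 10.1 TPM), with overlapping ranges. From fresh to cultured cells Il4ra and Il2ra thus moved up the order and Il7r, Il21r and Il15ra down it.

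**Figure D1:**
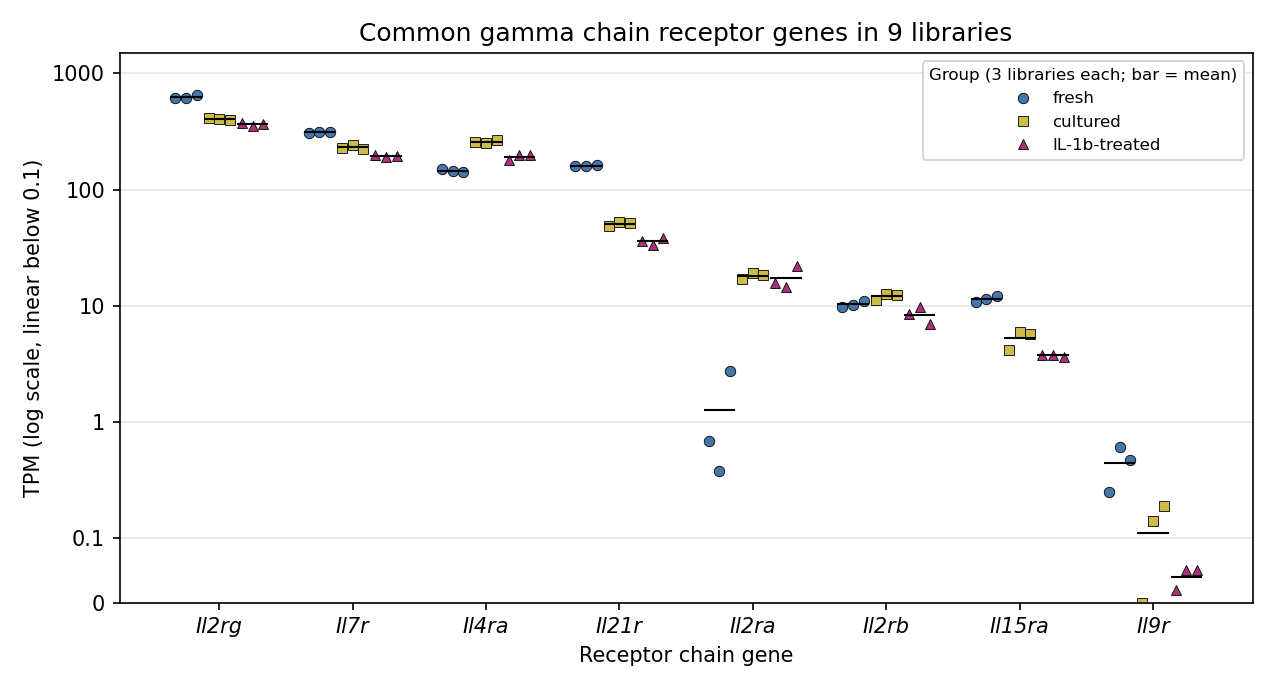
TPM of the 8 receptor chain genes in each of the 9 libraries, on a logarithmic axis that is linear below 0.1. Points are libraries and bars are means of 3; Il2ra separates fresh from cultured cells most widely, Il21r is lower in each cultured and IL-1b-treated library than in each fresh one, and Il4ra is higher.

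Culture without IL-1b changed all 7 tested chains. Il2ra, Il4ra and Il2rb rose and Il21r, Il15ra, Il2rg and Il7r fell (7 of 7 called, against a background of 58.2% of all genes tested). Of all genes, 29.4% were called higher and 28.9% lower. Changes of at least 2-fold were rarer, at 5.85% of genes upward, where Il2ra and Il4ra belong, and 6.83% downward, where Il21r belongs. TPM ranges of the fresh and cultured libraries did not overlap for any of these 7 chains, as for 60.4% of all genes tested.

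Il2ra (ENSMUSG00000026770, chr2:11642807-11693193, plus strand) encodes the alpha chain of the high-affinity interleukin-2 receptor. Its level was 0.68, 0.38 and 2.73 TPM in the 3 fresh libraries, 16.84, 18.96 and 18.33 TPM in the cultured ones and 15.64, 14.59 and 22.05 TPM in the IL-1b-treated ones. All 6 libraries from culture thus lay above all fresh ones, and the cultured and IL-1b-treated ranges overlapped. Behind these levels stood 44, 17 and 30 expected counts in fresh libraries against 599, 681 and 658 in cultured ones. The increase on culture was 4.62 ± 0.152 (SE, log2, adjusted p = 3.64e-17 in edgeR), or 24.6-fold, and 40 of all genes tested (0.307%) rose by at least as much. The high TPM of fresh replicate 3 went with a mean transcript length of 1437.55 bases in the deposited table, against 4412 bases in the other fresh libraries. GENCODE M21 lists transcripts of 4412, 1013 and 502 bases for the gene, and at 30 counts the split among them is imprecise. A model gene inside Il2ra on the same strand, Gm37881, held 0, 39 and 14 counts in the 3 groups.

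Genes of the regulatory T cell list, the other setting in which CD25 is known, moved in both directions on culture, while their summed TPM rose. Its 9 genes summed to 71.9 to 76.7 TPM in fresh, 381.9 to 407.4 TPM in cultured and 355.1 to 397.2 TPM in IL-1b-treated libraries, and none was at 0. Of the 8 tested, 5 rose and 2 fell. Most of the sum came from Tnfrsf18, with a mean of 48.8 TPM in fresh and 269.5 TPM in cultured cells, and from Tnfrsf4 and Ctla4. The lineage factor Foxp3 was at 1.27 TPM in fresh, 1.81 TPM in cultured and 1.16 TPM in IL-1b-treated cells. On the TMM scale Foxp3 rose by 1.11 ± 0.345 on culture (log2, adjusted p = 0.00852), and was 0.92 ± 0.348 higher in IL-1b-treated than in fresh cells (adjusted p = 0.0245). The part of these cells in the Il2ra result was not tested.

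Il4ra (ENSMUSG00000030748, chr7:125552120-125579474, plus strand), the chain that binds interleukin-4 and also serves the interleukin-13 receptor, was the other strongly induced member. It was at 149.76, 144.14 and 141.13 TPM in fresh, 255.72, 252.53 and 267.31 TPM in cultured, and 180.89, 198.52 and 198.36 TPM in IL-1b-treated libraries. No 2 groups overlapped, with cultured libraries highest and fresh ones lowest. Its rise on culture was 1.06 ± 0.0365 (log2, adjusted p = 8.19e-17), or 2.08-fold. Il13ra1, its partner in the interleukin-13 receptor, had 12, 8 and 8 counts in the 3 groups and was not tested.

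Il21r (ENSMUSG00000030745, chr7:125603429-125633570, plus strand) encodes the interleukin-21 receptor, which signals chiefly through STAT3. It was at 160.11, 160.84 and 162.12 TPM in fresh, 49.0, 52.12 and 51.37 TPM in cultured, and 36.36, 33.51 and 38.2 TPM in IL-1b-treated libraries. The 3 groups were fully separate and the spread within the fresh group was 1.02 TPM (SD). Il21r fell by 1.41 ± 0.0478 on the log2 scale (adjusted p = 5.96e-17), a 2.66-fold decrease. Il21r and Il4ra are neighbours, 24.0 kb apart on 1 strand with 0 protein-coding genes between them, and they moved in opposite directions.

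Markers of B cells, which are known to express Il21r and Il4ra too, were present in the fresh libraries. The 10 B cell markers summed to 58.5 to 72.5 TPM in fresh, 4.9 to 5.83 TPM in cultured and 5.02 to 7.06 TPM in IL-1b-treated libraries, and none was at 0 in a whole group. All 10 of 10 fell on culture, Cd79a from a mean of 13.3 to 1.45 TPM, where 28.9% of all genes fell. Markers such as Ebf1 (0.56 TPM in fresh, 0.01 TPM in cultured cells) passed the filter only through the fresh libraries, so their fall was fixed in advance. The part of B cells in the Il21r and Il4ra results was not tested.

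Il7r (ENSMUSG00000003882, chr15:9505788-9530176, minus strand) encodes CD127, the chain that naive T cells depend on for survival. Its level was 308.96, 314.43 and 313.75 TPM in fresh, 230.02, 241.33 and 221.87 TPM in cultured, and 199.71, 191.49 and 193.32 TPM in IL-1b-treated libraries. The groups were separate in TPM, in the order fresh, cultured, IL-1b-treated. On the TMM scale Il7r fell on culture by 0.16 ± 0.0303 (log2, adjusted p = 0.000115), or 1.12-fold. Crlf2, which pairs with Il7r in the receptor for TSLP, fell by 0.67 ± 0.108 (adjusted p = 1.23e-05). The mean transcript length of Il7r in the deposited tables was 3098.6 ± 15.3 bases (SD, n = 3) in fresh, 3182.1 ± 10.6 in cultured and 3232.9 ± 15.3 in IL-1b-treated libraries. No 2 groups overlapped in this length, and the exact two-sided permutation test gave p = 0.1 for each of the 3 comparisons, the smallest that 3 against 3 libraries allow (0.48 after adjustment over 24 length comparisons). GENCODE M21 lists 4 transcripts for the gene, from 359 to 3540 bases.

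Il15ra (ENSMUSG00000023206, chr2:11705290-11734317, plus strand) encodes the chain that holds interleukin-15 and presents it to neighbouring cells. It was at 10.67, 11.35 and 12.09 TPM in fresh, 4.16, 5.97 and 5.72 TPM in cultured, and 3.75, 3.8 and 3.65 TPM in IL-1b-treated libraries. The 3 groups were separate in TPM, but the counts behind them were only 58 to 217 per library. Il15ra fell by 0.79 ± 0.194 on culture (log2, adjusted p = 0.00122), or 1.73-fold. It lies 12.1 kb beyond Il2ra on the same strand, again with 0 protein-coding genes between, and this pair too moved apart. Among 2945 pairs of neighbouring genes that were both called on culture, 38.9% moved in opposite directions.

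Markers of myeloid cells, which are known to present interleukin-15 on this chain, were present in the fresh libraries. Their 10 markers summed to 16.04 to 21.02 TPM in fresh, 0.57 to 2.23 TPM in cultured and 0.75 to 1.08 TPM in IL-1b-treated libraries. In both cultured groups Cd14, Clec9a and Xcr1 were at 0. All 5 tested myeloid markers fell on culture, where 28.9% of all genes fell. Markers such as Lyz2 (12.5 TPM in fresh, 0.1 TPM in cultured cells) passed the filter only through the fresh libraries, so their fall was fixed in advance. The part of myeloid cells in the Il15ra decrease was not tested.

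Il9r (ENSMUSG00000020279, chr11:32187541-32200279, minus strand), the interleukin-9 receptor, was at the edge of detection in every group. It had 12, 20 and 16 counts in fresh, 0, 3 and 6 in cultured and 1, 1 and 3 in IL-1b-treated libraries, with at most 0.61 TPM, and did not pass the filter. Per total count the fresh libraries held 4.76 times as much as the cultured ones (exact 95% interval 2.31 to 11.04) and 8.88 times as much as the IL-1b-treated ones (3.55 to 28.6). These intervals cover counting error over the summed libraries, not the spread between them. Between cultured and IL-1b-treated libraries the ratio of 1.86 had an interval of 0.561 to 7.08, and no difference was detectable at this depth. Mast cells and basophils, known carriers of this receptor, had markers summing to at most 0.85 TPM in fresh libraries, with Fcer1a at 0 in all 9.

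Il2rb (ENSMUSG00000068227, chr15:78479256-78495271, minus strand) encodes the beta chain that the receptors for interleukins 2 and 15 share. It was at 9.77, 10.18 and 10.96 TPM in fresh, 11.31, 12.72 and 12.29 TPM in cultured, and 8.45, 9.67 and 7.0 TPM in IL-1b-treated libraries. Cultured libraries were all above fresh ones and IL-1b-treated ones all below. On the TMM scale Il2rb rose by 0.50 ± 0.0889 on culture (log2, adjusted p = 4.79e-05), or 1.41-fold. In TPM the increase was 0.21 and was not called (limma on log2(TPM + 1), adjusted p = 0.19). After correction of the counts for GC content and length, the increase was called and was larger than on the TMM scale. NK cells and memory T cells are known to carry this chain. The 7 NK cell markers summed to 26.4 to 44.0 TPM in fresh, 13.7 to 17.0 TPM in cultured and 8.4 to 15.2 TPM in IL-1b-treated libraries, where Ncr1 and Klra8 were at 0. Of 4 tested, 3 fell on culture, where 28.9% of all genes fell and 29.4% rose. Markers such as Gzma (1.83 TPM in fresh, 0.38 TPM in cultured cells) passed the filter only through the fresh libraries. Of 5 tested memory markers 2 rose, Itgb1 by 0.69 and Id2 by 0.71, and 2 fell, among them Cd44 from 9.53 to 1.40 TPM. The part of these cells in the Il2rb result was not tested.

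Il2rg (ENSMUSG00000031304, chrX:101264378-101268255, minus strand), the shared gamma chain, was at 616.66, 618.72 and 648.69 TPM in fresh, 413.5, 405.73 and 395.97 TPM in cultured, and 374.18, 351.8 and 370.06 TPM in IL-1b-treated libraries. The 3 groups were separate in TPM, with the fresh libraries highest. It fell by 0.37 ± 0.0309 on culture (log2, adjusted p = 5.89e-10), or 1.29-fold. A protein-coding model that overlaps it on the same strand, Gm20489, held 7.48 counts in fresh libraries and 0 in the others, against 28690 for Il2rg itself.

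**Figure D2:**
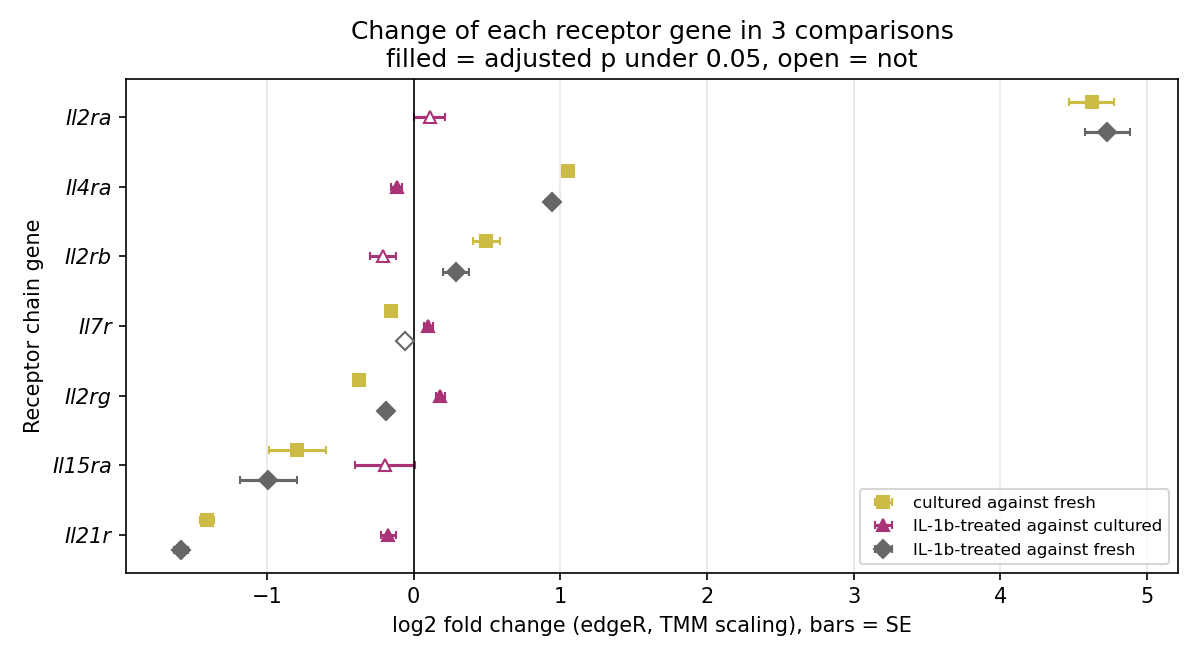
Log2 fold change with its SE for the 7 tested receptor chain genes in the 3 comparisons, from edgeR with TMM scaling. Filled symbols passed an adjusted p of 0.05; the changes against fresh cells run from -1.58 for Il21r to 4.73 for Il2ra, while those between IL-1b-treated and cultured cells lie between -0.21 and 0.18.

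The ligand-specific chains were then set against each other within each library. Scaling between libraries plays no part in such shares and ratios, but trends with GC content or length that differ between libraries can. Il7r, Il4ra, Il21r, Il2ra, Il15ra and Il9r together came to 631.5 ± 0.957 TPM in fresh, 563.9 ± 7.70 in cultured and 444.7 ± 9.91 in IL-1b-treated cells. Between groups this sum does depend on the scale. On log2(TPM + 1) the median gene was also displaced against fresh cells, by -0.19 in cultured and -0.45 in IL-1b-treated cells. Il2rg amounted to 0.99 of that sum in fresh cells (0.978 to 1.03), 0.72 in cultured cells (0.701 to 0.744) and 0.82 in IL-1b-treated cells (0.796 to 0.858). In deposited TPM the ratio was thus lowest in culture without IL-1b. After correction for GC content and length, Il2rg (0.07), Il7r (0.05) and Il4ra (0.10) changed by similar amounts between IL-1b-treated and cultured cells. The ratio was not recomputed with that correction, so whether the step from 0.72 to 0.82 holds under it was not tested. Il4ra made up 22.96% of the sum in fresh cells and 45.9% in cultured cells. Il21r made up 25.5 and 9.01% and Il7r 49.5 and 41.0%. Il2ra went from 0.200 to 3.20% and Il15ra from 1.80 to 0.936%.

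**Figure D3:**
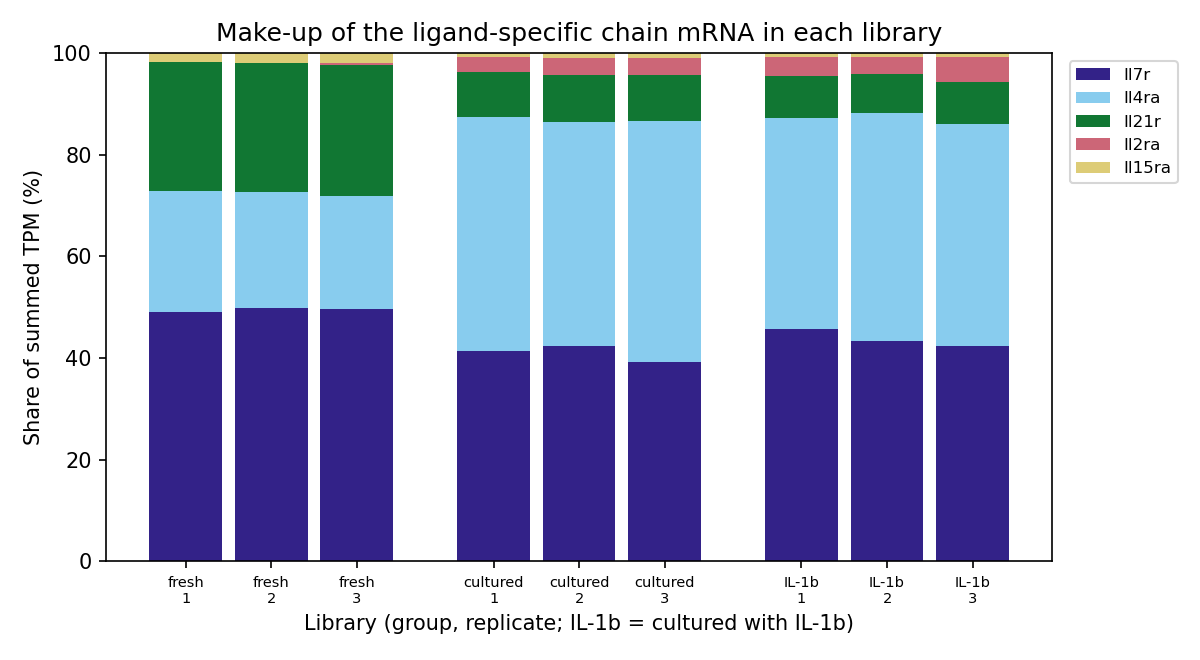
Share of each ligand-specific chain in their summed TPM, in percent, for each of the 9 libraries. Il4ra is 22.3 to 23.8% in fresh and 44.2 to 47.3% in cultured libraries, and Il21r goes from about 25.5% to 9.01%; Il9r, at most 0.0966%, is too small to be drawn.

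Ratios between single chains showed the same separation in deposited TPM, and they too were not recomputed after the GC and length correction. Il4ra stood at 0.231 ± 0.0127 of Il2rg in fresh (SD, n = 3), 0.639 ± 0.0316 in cultured and 0.528 ± 0.0410 in IL-1b-treated cells. Il21r stood at 0.257, 0.126 and 0.0986 of Il2rg, and Il7r at 0.498, 0.571 and 0.534. For the interleukin-2 receptor, Il2ra per Il2rb was 0.0696, 0.0373 and 0.249 in fresh, 1.49 in each cultured and 1.85, 1.51 and 3.15 in IL-1b-treated libraries, so the alpha chain went from well below the beta chain to above it. For the interleukin-15 receptor, Il15ra per Il2rb was 1.10 ± 0.0114 in fresh, 0.434 ± 0.0575 in cultured and 0.453 ± 0.0647 in IL-1b-treated cells. Of 18 comparisons of 6 ratios, 16 had separate groups and an exact two-sided permutation p of 0.1, the smallest possible with 3 against 3 libraries (0.113 after adjustment over the 18). The exceptions, by the same exact permutation test, were Il2rb per Il2rg (p = 0.2) and Il15ra per Il2rb (p = 0.7), both between IL-1b-treated and cultured cells.

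IL-1b at the same culture time changed the family little. Of the 7 tested chains, 4 were called, 2 up and 2 down, against a background of 28.9% of all genes (15.6% higher and 13.3% lower), and the called changes were at most 1.13-fold. Il2rg rose by 0.18 ± 0.0311 (log2, adjusted p = 9.84e-05), and Il7r by 0.10 ± 0.0305 (adjusted p = 0.0166). Il21r fell by 0.17 ± 0.0511 (adjusted p = 0.0129) and Il4ra by 0.12 ± 0.0358 (adjusted p = 0.0173). Il2rb (-0.21 ± 0.0886, adjusted p = 0.0835), Il15ra (-0.20 ± 0.205, adjusted p = 0.531) and Il2ra (0.11 ± 0.103, adjusted p = 0.485) did not pass. Il2rb was called lower in DESeq2 (adjusted p = 0.0415), with library size alone (-0.32) and on log2(TPM + 1) (-0.49). After correction for GC content and length its decrease all but vanished and was not called. The 2.17 times as much Il2ra as Il2rb in IL-1b-treated cells rests largely on replicate 3.

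The direction of these small changes depended on the scale. In TPM, 6 of the 7 chains had all IL-1b-treated libraries below all cultured ones, Il2ra being the exception, and separate ranges were found for 48.8% of all genes tested. On log2(TPM + 1) Il2rg was lower by 0.15 and not higher (-0.15, adjusted p = 0.0103 in limma), and Il7r likewise (-0.24, adjusted p = 0.00115). After correction of the counts for GC content and transcript length, Il4ra was higher (0.10, adjusted p = 0.0087), and Il2rg (0.07, adjusted p = 0.115), Il7r (0.05, adjusted p = 0.138) and Il21r (-0.06, adjusted p = 0.465) were not called. The calls of Il4ra, Il7r and Il21r were also lost when single libraries were left out. For Il4ra these were cultured replicate 1 (adjusted p = 0.0528), cultured replicate 3 (0.121) and IL-1b-treated replicate 1 (0.143). For Il7r they were cultured replicates 1 (0.069) and 3 (0.0927), and for Il21r cultured replicate 2 (0.0603) and IL-1b-treated replicate 2 (0.078). Without IL-1b-treated replicate 3, the library that stood apart, the number of members called was 4 as well, with Il21r at -0.22. None of the settings run called Il2ra different between IL-1b-treated and cultured cells.

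**Figure D4:**
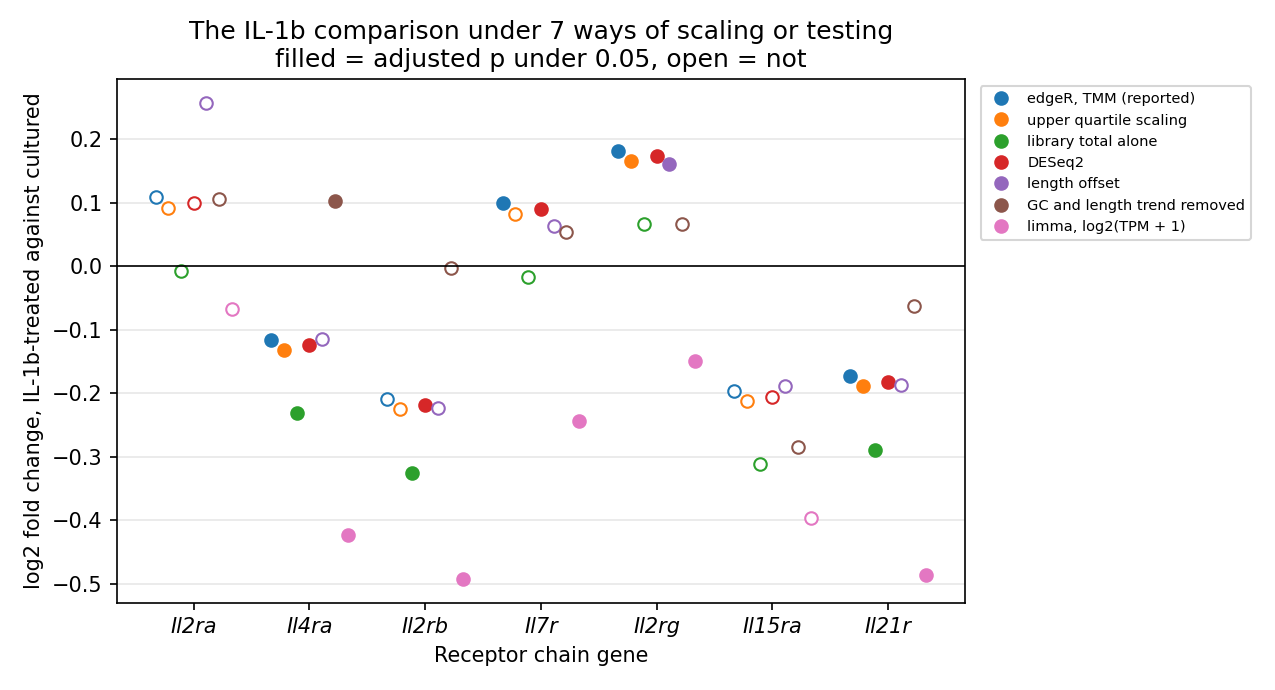
Log2 fold change between IL-1b-treated and cultured cells for the 7 tested receptor chain genes under 7 ways of scaling or testing the same libraries. Filled points passed an adjusted p of 0.05. For Il2rg and Il7r the points lie on both sides of 0, from -0.15 to 0.18 and from -0.24 to 0.10. Il4ra also changes sign, from -0.12 in the reported fit to 0.10 after GC and length correction, as does Il2ra, from 0.11 to -0.07 on log2(TPM + 1). For Il21r the points are all below 0.

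IL-1b-treated cells set against fresh cells share their libraries with both comparisons above, so this is the same data from another side. Of 7 chains 6 were called, 3 up and 3 down (background 65.5% of all genes, 32.9% higher and 32.6% lower). TPM ranges were separate for 7 of 7 chains and for 69% of all genes. Il2ra stood 4.73 ± 0.152 higher and Il4ra 0.94 ± 0.0366 higher. Il21r was lower by 1.58 on the log2 scale (-1.58 ± 0.0486), Il15ra was at -0.99 ± 0.197 and Il2rg at -0.19 ± 0.0308. Il2rb was called higher at 0.29 ± 0.0900 (adjusted p = 0.00757) but was lower in log2(TPM + 1), at -0.28 (adjusted p = 0.079). The rise of Il2rb was not called with library size alone (0.12) or with a length offset (0.25). After the GC and length correction it was called and was larger. Il7r was not called (-0.06 ± 0.0303, adjusted p = 0.0992), but was lower in DESeq2 (adjusted p = 0.0469) and after the GC and length correction (-0.28, adjusted p = 5.06e-10). In edgeR it was also called lower with upper quartile scaling (-0.08, adjusted p = 0.0325), library size alone (-0.23, adjusted p = 5.96e-07) and a length offset (-0.13, adjusted p = 0.0106). On log2(TPM + 1) Il7r was at -0.68 (limma, adjusted p = 2.37e-07), so its call depended on the scaling.

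The ligands of these receptors were nearly absent from the RNA. Il7 and Il9 had 0 counts in all 9 libraries. Il2 had 5.62, 0 and 1 counts summed over fresh, cultured and IL-1b-treated libraries, Il4 had 0, 2 and 0, Il15 had 0, 1 and 5, and Il21 had 15, 5 and 0. None of the 6 ligands passed the filter. A count of 0 in a library still allows 3 counts, or 0.130 to 0.222 CPM.

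Downstream of the receptors, most kinases and STATs fell on culture. Of 8 genes, 6 fell, 1 rose and 1 did not pass, where 28.9% of all genes tested fell and 29.4% rose. Their median log2 fold change was -0.62, against 0.0038 for all genes. Jak3, the kinase that rides on the gamma chain, fell by 2.79 ± 0.0618 (adjusted p = 2.83e-20), from 131.2 ± 5.51 to 16.0 ± 1.78 TPM, against 0.37 for Il2rg itself. Stat3, which carries the interleukin-21 signal, fell by 1.14 and Stat5a by 1.02. Stat6, the interleukin-4 factor, fell by 0.45 and Tyk2 by 0.79, while Jak2 rose by 0.64. Jak1 fell by 0.20 (adjusted p = 2.78e-07), but stood at 0.02 after the GC and length correction. Stat5b did not pass (-0.01 ± 0.0416, adjusted p = 0.843), had 89.4 TPM in fresh and 76.5 TPM in cultured cells, and was called higher after that correction (0.36). Between IL-1b-treated and cultured cells 4 of the 8 fell and none rose, where 13.3% of all genes fell and 15.6% rose. Those that fell included Stat3 (-0.34, adjusted p = 6.06e-07) and Jak3 (-0.30, adjusted p = 0.0027), of which Jak3 was not called after that correction.

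Negative regulators, several of which STAT proteins induce in a feedback loop, did not move as 1 group. Of 7, 3 rose, 3 fell and 1 did not pass, beside 29.4% of all genes higher and 28.9% lower. Socs2 rose by 5.70 ± 0.392 (adjusted p = 1.93e-11), from 0.27 to 7.25 TPM, Cish by 1.38 ± 0.103 and Socs1 by 0.78 ± 0.107. The phosphatase gene Ptpn6 fell by 1.28 and the adaptor gene Sh2b3 by 0.70. Socs3 fell by 0.34 and stood at 0.04 after the GC and length correction. Ptpn2 did not pass (0.15, adjusted p = 0.0652), and turned to -0.18 after that correction and to -0.12 on log2(TPM + 1). Between IL-1b-treated and cultured cells Sh2b3 fell (-0.35, adjusted p = 0.0014, not called after the same correction) and Ptpn2 rose (0.21, adjusted p = 0.0211, but -0.08 on log2(TPM + 1)). The other 5 did not pass, where 28.9% of all genes passed.

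Genes known as STAT5 targets moved in both directions. Of 12 tested, 6 rose and 4 fell on culture (29.4 and 28.9% of all genes), with a median of 0.22 against 0.0038 for all genes. Those that rose were Bcl2, a guard against cell death, at 2.05 ± 0.0292 (adjusted p = 1.00e-23) and from 53.9 to 190.2 TPM, the kinase genes Pim1 at 2.07 and Pim2 at 0.73, Lta at 1.32, Mcl1 at 0.91 and Myc at 0.45. Among those that fell were Ccnd2 at -0.43 and Prf1, the pore-forming effector, at -2.16. In the same libraries 3 of 4 tested NK cell markers fell, where 28.9% of all genes fell, and markers such as Gzma passed the filter only through the fresh libraries. The part of NK cells in the Prf1 result was not tested. With IL-1b, 2 of the 12 STAT5 target genes rose and 4 fell relative to cultured cells, where 15.6% of all genes rose and 13.3% fell. Bcl2 was lower by 0.21 (-0.21, adjusted p = 3.39e-06), and Mcl1 higher by 0.14 (adjusted p = 0.000274) but lower on log2(TPM + 1), at -0.18.

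**Figure D5:**
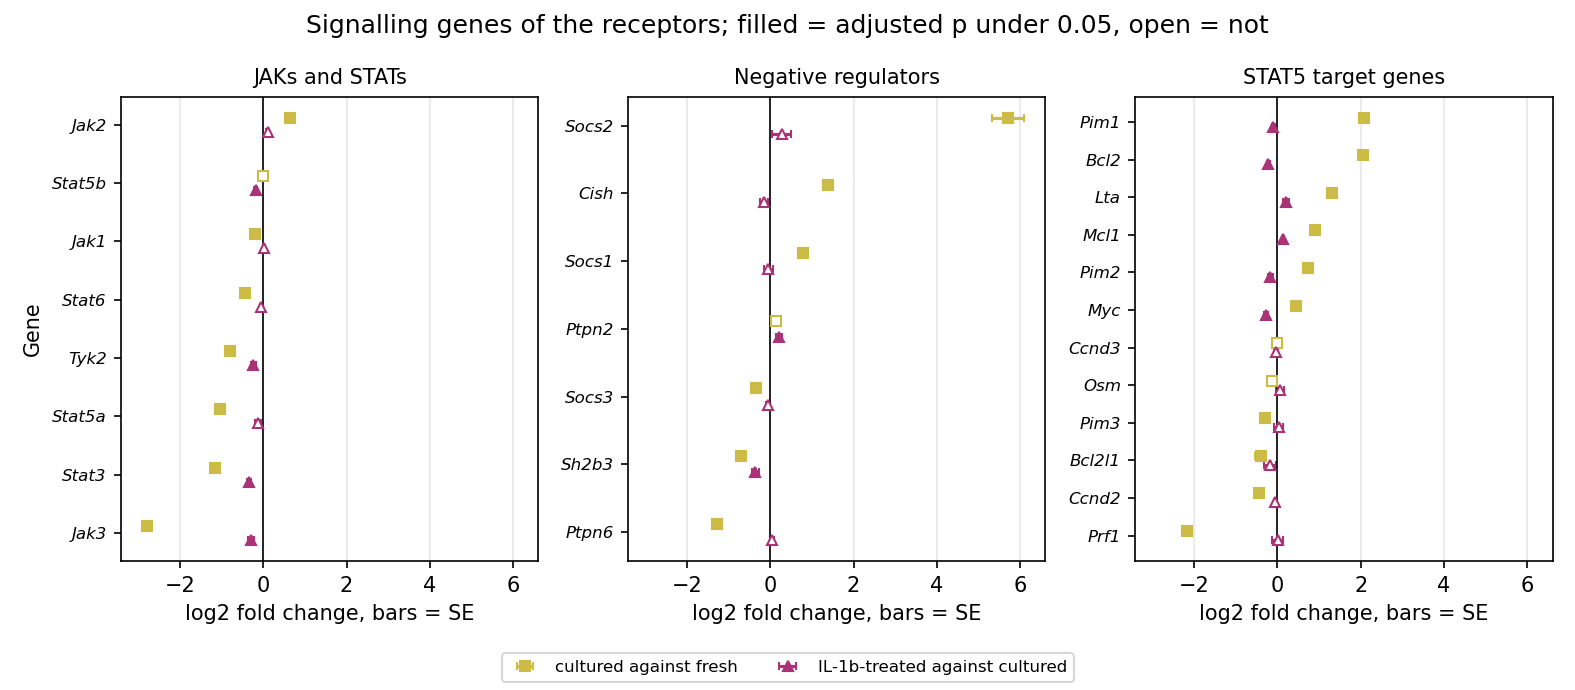
Log2 fold change with its SE for JAK and STAT genes, negative regulators and STAT5 target genes, between cultured and fresh cells (squares) and between IL-1b-treated and cultured cells (triangles). Filled symbols passed an adjusted p of 0.05; on culture Jak3 is lowest at -2.79 and Socs2 highest at 5.70, while with IL-1b the called genes of these lists lie between -0.35 and 0.21.

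Adaptors and regulators of the receptor genes fell for the most part. Of 10 tested adaptors and kinases 8 fell and 1 rose on culture, where 28.9% of all genes fell. Lck, which is also the T cell receptor's kinase, fell by 0.70 (adjusted p = 2.99e-15), Pik3r1 by 0.61, Grb2 by 0.53 and Syk by 3.86, the last from 3.73 TPM. Syk is also a kinase of the B cell receptor, and the 10 B cell markers fell with a median of -3.80; their part in the Syk result was not tested. Irs2, an adaptor of the interleukin-4 receptor, rose by 0.33 (adjusted p = 0.0134), a call that was lost without fresh replicate 3 (0.0648), without cultured replicate 3 (0.112) and on log2(TPM + 1) (0.653). Pik3cd was lower in IL-1b-treated than in cultured cells (-0.23, adjusted p = 1.88e-06), but at 0.03 after the GC and length correction.

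Of 12 tested regulators of receptor genes 9 fell on culture and none rose, where 28.9% of all genes fell and 29.4% rose. Foxo1, known as an activator of Il7r in naive T cells, fell 2.83-fold (adjusted p = 3.42e-19), from 91.0 to 27.4 TPM. Gfi1, known as a repressor of Il7r, fell by 1.67 ± 0.168, from 11.6 to 2.89 TPM. Il7r itself fell by 0.16. Runx3 fell by 1.14, Runx1 by 0.46, Nfatc1 by 0.75 and Nfatc2 by 0.97. Eomes, known to act on Il2rb, fell by 3.02, from 4.42 to 0.53 TPM, and Il2rb rose by 0.50. The part of these regulators in the Il7r and Il2rb results was not tested. Between IL-1b-treated and cultured cells 6 of the 12 regulators fell and none rose, where 13.3% of all genes fell and 15.6% rose. Those that fell included Nfatc1 (-0.43, adjusted p = 1.85e-06) and Foxo1 (-0.29, adjusted p = 8.28e-06), the latter not called after the GC and length correction.

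Cytokine receptor chains outside the family served as its nearest comparison. Of 28 listed, 17 were tested. On culture 3 rose and 10 fell, where 29.4% of all genes rose and 28.9% fell. Their median was -0.30, against -0.16 for the 7 family members and 0.0038 for all genes. Ifngr1, the ligand-binding interferon gamma chain, rose by 2.64 ± 0.0333 (adjusted p = 1.64e-24), Il10ra by 2.19 and Il20rb by 2.40. Il6st, the shared chain of the interleukin-6 family and in that sense the counterpart of Il2rg, fell by 0.72 ± 0.0321, and Il27ra fell by 0.62. Among the others that fell were chains best known from myeloid cells, Csf2ra from 17.6 to 1.99 TPM, Il3ra from 9.003 to 1.36 TPM, Csf3r from 2.80 to 0.04 TPM and Csf2rb from 0.58 TPM, and Il12rb1 from 2.72 to 0.323 TPM. The tested myeloid markers (5 of 5) and neutrophil markers (3 of 3, Csf3r included) fell too, where 28.9% of all genes fell. Genes such as Csf3r and Cxcr2 (2.60 TPM in fresh, 0.01 TPM in cultured cells) passed the filter only through the fresh libraries. For these a fall was fixed in advance, so the counts lend no support. The part of myeloid cells and neutrophils in these results was not tested. Between IL-1b-treated and cultured cells 1 rose and 3 fell, where 15.6% of all genes rose and 13.3% fell. Ifngr1 was higher at 0.24 (adjusted p = 2.06e-06) but lower on log2(TPM + 1) at -0.12, and Il6st was lower at -0.21 (adjusted p = 3.09e-05), a call lost after the GC and length correction. A difference between the family and these chains was not tested.

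For each member the 3 genes nearest in pattern over the 9 libraries were found by the root mean square difference of centred log2 CPM, among 10525 genes. Il2ra was nearest to Myo6 (0.23), Ecm1 (0.29) and Jaml (0.32), and Il21r to Cd6 (0.05), Zmynd8 and Itgal. Il4ra was nearest to Map3k5 (0.06), Adpgk and Pts, and Il7r to Btla (0.03), Stt3b and Fam208b. The nearest to Il2rg were St13 (0.04), Grap and Snhg12, and to Il15ra Ptgfrn (0.10), Urb1 and Smad1. N4bp2 and Styx were among the 3 nearest to Il2rb. These are descriptions over libraries that share their groups, and say nothing of function. The nearest gene of Il2ra was less close than those of the abundant members, and of the tested members Il2ra also had the fewest counts in fresh libraries.

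The label of naive CD4+ T cells was checked on markers. All 12 CD4 T cell genes had a mean of at least 1 TPM in each group, summing to 6563 to 6677 TPM in fresh, 4881 to 4959 TPM in cultured and 4335 to 4414 TPM in IL-1b-treated libraries. The 7 memory markers summed to 90.6 to 94.9, 103 to 107 and 97.8 to 103 TPM. Most of this sum was Id2, with means of 51.2 TPM in fresh and 68.3 TPM in cultured cells, and Itgb1, with 24.5 and 33.5 TPM. Cd44 went from 9.53 TPM in fresh to 1.40 TPM in cultured cells and Maf from 2.28 to 0.38 TPM, so the sum does not describe each marker. Neutrophil markers summed to 14.1 to 38.1 TPM in fresh libraries and at most 2.22 TPM after culture, and the 2 CD8 genes to 23.8 to 25.6, 41.2 to 50.1 and 37.9 to 42.4 TPM. Of 6 stromal genes 4 were at 0 throughout, but the list summed to 148.9 to 162.4 TPM in fresh, 180.0 to 180.5 TPM in cultured and 140.1 to 148.6 TPM in IL-1b-treated libraries. Most of this sum was Pecam1, with means of 157.6, 180.2 and 145.3 TPM in the 3 groups. Library totals ran from 13518814 to 23056686 counts.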

How the data were processed

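RNA of the 9 libraries was selected for poly(A) and made into libraries with a directional kit (NEBNext Ultra II), per the labels' protocols. The submitters' processing notes name STAR, RSEM and mm10, with versions and strand setting not given in the sources used here. The deposited tables hold, per the file headers, RSEM expected counts per gene, which divide ambiguous reads among genes and are not normalised. TPM values were deposited by the authors as RSEM's length-corrected shares, as were FPKM values, which were not used, and mean transcript lengths. Names and positions came from GENCODE M21 (GRCm38, the same assembly as mm10), which named 55141 of 55487 identifiers.

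Expected counts were rounded and tested with edgeR 4.0.16 in R 4.3.3 (TMM scaling, filterByExpr, quasi-likelihood F test, 1 fit of all 9 libraries, Benjamini-Hochberg adjustment over 13043 genes, threshold 0.05). The biological coefficient of variation was 0.0665. The SE of a log2 fold change is its size divided by the square root of F. Ratios of TPM and transcript lengths were compared by exact two-sided permutation tests that went through every split of the libraries. Il9r was compared by an exact ratio of summed counts, with scipy 1.17.1. The scripts were tested on simulated data.

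The members, the 19 gene lists and the alternatives were chosen with earlier results of these data known. The text names the 8 members, genes of the pathway lists with the smallest adjusted p first, and the 3 nearest genes in pattern with at least 1 TPM on average in some group; 2 genes these rules cover are not reported here. Alternatives were other scalings and filters, DESeq2 1.42.0, limma 3.58.1 with voom or on log2 TPM with a pseudocount of 1 or 0.1, an offset for effective length, correction for GC content and length by smooth trends (mgcv 1.9.3), a replicate block, and leaving out each library. The ratios of expected counts and the Il9r ratio were added after seeing the data.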

Additional observations from a re-analysis of the deposited data

How the results depend on the processing

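On culture the members kept direction and call in every alternative run except Il2rb, which was not called in TPM, whereas changes between IL-1b-treated and cultured cells often did not. Of the member fold changes recomputed, 436 kept direction and call, 22 lost and 13 gained a call, and 12 reversed; for pathway genes these numbers were 1151, 20, 4 and 21. Between IL-1b-treated and cultured cells 1 member and 2150 genes were called with a length offset, 1 and 2224 after GC and length correction, 1 and 2109 when that correction had a replicate block as well, and 2 to 4 members when 1 library was left out. With library size alone Il2ra turned to -0.0069 and Il7r to -0.017. In log2(TPM + 1) and log2(TPM + 0.1), Il2ra was at -0.068 and -0.072, Il2rg at -0.15 and -0.15, Il7r at -0.24 and -0.25, Mcl1 at -0.18 and -0.18, Ptpn2 at -0.082 and -0.084 and Ifngr1 at -0.12 and -0.12. After GC and length correction, without and then with the block, Il4ra was at 0.10 and 0.10 and Pik3cd at 0.026 and 0.025. Il15ra per Il2rb ranged from -0.056 to 0.16 (log2) without 1 library. Between IL-1b-treated and fresh cells Il2rb was at -0.28 and -0.31 in the TPM settings. Between cultured and fresh cells the same corrections put Jak1 at 0.024 and 0.024, Stat5b at 0.36 and 0.36, Socs3 at 0.036 and 0.035 and Ptpn2 at -0.18 and -0.17; Ptpn2 was at -0.12 and -0.12 in TPM. Stat5b was at 0.018 with a length offset and between -0.034 and 0.027 without 1 library. The cause of these shifts was not tested.

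Scaling moved the balance of calls. Between IL-1b-treated and cultured cells 2037 genes were higher and 1731 lower with TMM, 1191 and 3273 with library size alone, 289 and 4452 in log2(TPM + 1), and 1522 and 702 after GC and length correction. Against fresh cells, log2(TPM + 1) gave 1877 and 4842 for cultured cells (3829 and 3765 with TMM) and 1527 and 7113 for IL-1b-treated cells (4287 and 4252), where library size alone gave 3408 and 5281. By TMM-normalised CPM, which is not corrected for length, 2 of 8 members kept their TPM rank in fresh and 5 of 8 in cultured cells. Without a filter on low counts, and in DESeq2, 8 members were tested on culture and 5 called lower.

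Replicate numbers did not pair the libraries: deviations of same-numbered libraries correlated at -0.02 to 0.02 over 9 pairs. The replicate block alone called 7, 4 and 6 members. Of 24 comparisons of transcript length, 19 had overlapping groups, and 12 of these changed sign when 1 library was left out. Depth limits Il9r, the ligands and the transcript mix of Il2ra in fresh cells.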
